A study of Mus musculus with 8 samples.

Results

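The blood cell transcripts described here are 10 marker genes, picked by name out of the 38293 gene identifiers of the count table. They are the adult globin genes Hba-a1, Hba-a2, Hbb-bs and Hbb-bt, the red cell genes Alas2 and Slc4a1, the platelet genes Ppbp and Pf4, and the neutrophil genes S100a8 and S100a9. Each symbol matched 1 Ensembl identifier through GENCODE M21, so all 10 genes were found. Poly(A) RNA was sequenced from left ventricles in 2 groups. Each library is called a heart here, as the labels list separate samples without stating that each came from another animal. The knockout (KO) group held 4 hearts, replicates 5 to 8, from mice with a knockout of Nbdy, also called mORF4, which encodes a microprotein of the mRNA decapping complex. The wild-type (WT) group held 4 hearts, replicates 1 to 4. All 8 samples came from untreated males of 8 weeks on a C57BL/6 background. The allele of the KO is not described in the labels, nor do they say whether the hearts were flushed of blood before RNA was taken.

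A ventricle taken for RNA contains the blood of its chambers and vessels. Mouse red cells lose their nucleus, but young red cells (reticulocytes) still carry mRNA, above all that of the alpha and beta chains of haemoglobin. Alas2 makes the first enzyme of heme synthesis in red cells, and Slc4a1 makes band 3, the anion exchanger of the red cell membrane. Ppbp and Pf4 encode chemokines stored in platelet granules, and Pf4 is also transcribed in macrophages that live in tissues. S100a8 and S100a9 encode both chains of calprotectin, an abundant cytosolic protein of neutrophils. Heart muscle has its own oxygen-binding globin, myoglobin (Mb). In whole-tissue RNA, fewer blood cells and less RNA per blood cell cannot be told apart.

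The alpha and the beta globin genes each come as a pair of close copies, and this bears on every globin count. The coding regions of Hba-a1 and Hba-a2, 429 bases each, differ at 1 base (C381T, Hba-a1 to Hba-a2, counted from the first base of the start codon). Those of Hbb-bs and Hbb-bt, 444 bases each, also differ at 1 base (C417T, Hbb-bs to Hbb-bt). The stretches around these differences are shown for that reason, with the differing base in capitals, read from the GENCODE M21 transcripts on GRCm38. They lie in the last exon, at chr11:32284313-32284373 (plus strand), chr11:32297130-32297190 (plus strand), chr7:103826665-103826725 (minus strand) and chr7:103812656-103812716 (minus strand).
Hba-a1: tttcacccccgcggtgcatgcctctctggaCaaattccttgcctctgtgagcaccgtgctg
Hba-a2: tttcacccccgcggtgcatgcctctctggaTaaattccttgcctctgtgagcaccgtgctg
Hbb-bs: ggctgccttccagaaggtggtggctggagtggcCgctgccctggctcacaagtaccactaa
Hbb-bt: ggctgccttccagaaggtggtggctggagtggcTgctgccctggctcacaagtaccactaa
Of the 505 stretches of 50 bases in the Hba-a2 transcript, 86.9% also occur in Hba-a1, and 67.5% of the 650 in Hba-a1 occur in Hba-a2. For the beta pair, 65.8% of the 579 stretches of Hbb-bs occur in Hbb-bt and 58.3% of the 654 of Hbb-bt in Hbb-bs. The counting of reads that fit both copies is not given in the sources used here, so the split within each pair is uncertain. The pair sums are given beside it. If such reads were left out, the sums would be too low as well, possibly by an unlike share in each pair. This limit also holds for globin levels per kilobase, shares of counts and ratios with globin counts.

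The promoters of Hba-a2, the beta globin genes and Alas2 are shown next, and their part in the levels across hearts was not tested. Each line gives the 120 bases before the RefSeq start (GRCm38.p6) at chr11:32296372-32296491 (plus strand), chr7:103827929-103828048 (minus), chr7:103813924-103814043 (minus) and chrX:150547297-150547416 (plus). Capitals mark 4 motifs searched on both strands: GATAA (the core bound by GATA factors), CACCC (bound by the red cell factor KLF1), CCAAT and TATAA. No marked matches overlap, though some lie end to end.
Hba-a2: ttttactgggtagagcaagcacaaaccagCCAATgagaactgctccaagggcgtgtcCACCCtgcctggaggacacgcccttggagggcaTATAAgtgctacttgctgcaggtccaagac
Hbb-bs: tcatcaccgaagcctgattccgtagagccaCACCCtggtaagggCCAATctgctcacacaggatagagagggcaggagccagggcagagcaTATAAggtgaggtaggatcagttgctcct
Hbb-bt: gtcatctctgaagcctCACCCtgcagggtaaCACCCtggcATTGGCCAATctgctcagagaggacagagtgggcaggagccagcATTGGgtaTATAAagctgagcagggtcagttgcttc
Alas2: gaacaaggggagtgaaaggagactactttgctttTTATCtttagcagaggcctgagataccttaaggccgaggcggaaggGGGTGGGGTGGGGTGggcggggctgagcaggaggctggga
The 300-base promoter windows of Hba-a1 and Hba-a2 are identical over the 297 bases they share, while those of Hbb-bs and Hbb-bt match at 56.2% of 299 bases aligned without gaps. Within the 300-base windows, CACCC and GATAA each occurred at least once in the 4 globin genes and in Alas2, and also in the neutrophil gene S100a9. The GATAA matches of the 4 globin genes lay at -182 to -209 from the start, outside the 120 bases shown. Pf4 held GATAA without CACCC, and Ppbp and S100a8 held neither, which says only that these letters do not occur there. Slc4a1 is not covered, as no promoter window of it was searched. Of 32851 mouse promoter windows of that length, 57.5% hold CACCC, 25.4% GATAA, 37.4% CCAAT, 24.9% TATAA and 35.4% AGGAAG (an ETS factor core). AGGAAG occurred in the windows of Hba-a1, Hba-a2, Alas2, Pf4 and S100a8. A match describes the sequence and shows no binding.

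Total counts ran from 11793495 to 14699949 in KO libraries and from 11101901 to 12773611 in WT libraries. As a check of the labels, Nbdy held 115 to 137 counts in KO libraries, against 208 to 248 in WT libraries (log2 fold change -0.97 ± 0.11 SE; edgeR adjusted p = 0.0060). Since the allele is not described, whether the remaining counts come from outside a deleted stretch is not known here. A pair of WT libraries stood apart. Mitochondrially encoded genes took 23.0 to 26.7% of counts in KO libraries, against 29.2% in WT replicate 1 and 19.4 to 19.9% in WT replicates 2 to 4. The stress gene Atf3 had 6.16 to 25.1 CPM (counts brought to a common library size by TMM) in KO libraries, against 260.5 CPM in WT replicate 2 and 5.94 to 23.8 CPM in the remaining WT libraries. Ventricular muscle genes were abundant: their 10 listed members summed to 75707 to 88668 CPM in KO libraries and 72996 to 87006 CPM in WT libraries. Of the 6 atrial genes listed, Bmp10 held 0 counts in every library, and Sln and Myl7 at most 6 and 13 counts in KO libraries and 7 and 28 in WT libraries. Myl4 held 40 to 116 counts in KO libraries and 52 to 89 in WT libraries, Stard10 286 to 563 in KO and 251 to 396 in WT, and Nppa, which stressed ventricles also express, 6304 to 9036 in KO and 3381 to 5547 in WT.

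The blood cell transcripts had at least 1 count in every heart, at levels that differed up to 19.7-fold between libraries (Slc4a1), and none of those tested passed the threshold between KO and WT. Of the 9 that had enough counts to be tested, 0 reached an adjusted p of 0.05 by the quasi-likelihood test of edgeR. Of all 13336 genes tested, 0.0225% did, 0.015% as higher and 0.0075% as lower in KO. The adjusted p of the 9 blood cell transcripts ran from 0.734 to 0.974, and 1 of them, Alas2, had an unadjusted p under 0.05, higher in KO. Of all genes tested 6.4% had such a p, 3.5% with higher and 2.89% with lower values in KO. DESeq2 and limma-voom also called 0 of the 9, with 1 at an unadjusted p under 0.05 in DESeq2. In 8 of the 9 the log2 fold change was above 0, against 49.4% of all genes tested, and the median was 0.49, against -0.0032 over all genes tested. A log2 fold change of 0.30 or more was seen in 6 of the 9, against 8.9% of all genes tested. Single libraries weighed on both values: without KO replicate 5, 3 of the 9 reached 0.30 (Alas2, S100a8 and S100a9) and the median was 0.24, and the median was 0.29 without KO replicate 7 and 0.30 without WT replicate 3. With library totals in place of TMM scaling, 5 of the 9 reached 0.30. The SE of the 9 ran from 0.18 (Pf4) to 0.57 (S100a8), against a median of 0.16 over all genes tested. The shares over all genes tested were therefore not matched to these 9 for level or spread. The 9 genes are not independent, since copies can share reads and genes of a cell type vary together. In none of the 10 genes were all KO libraries above or below all WT libraries, a separation seen as higher in KO in 2.14% and as lower in KO in 1.98% of the genes tested.

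**Figure D1:**
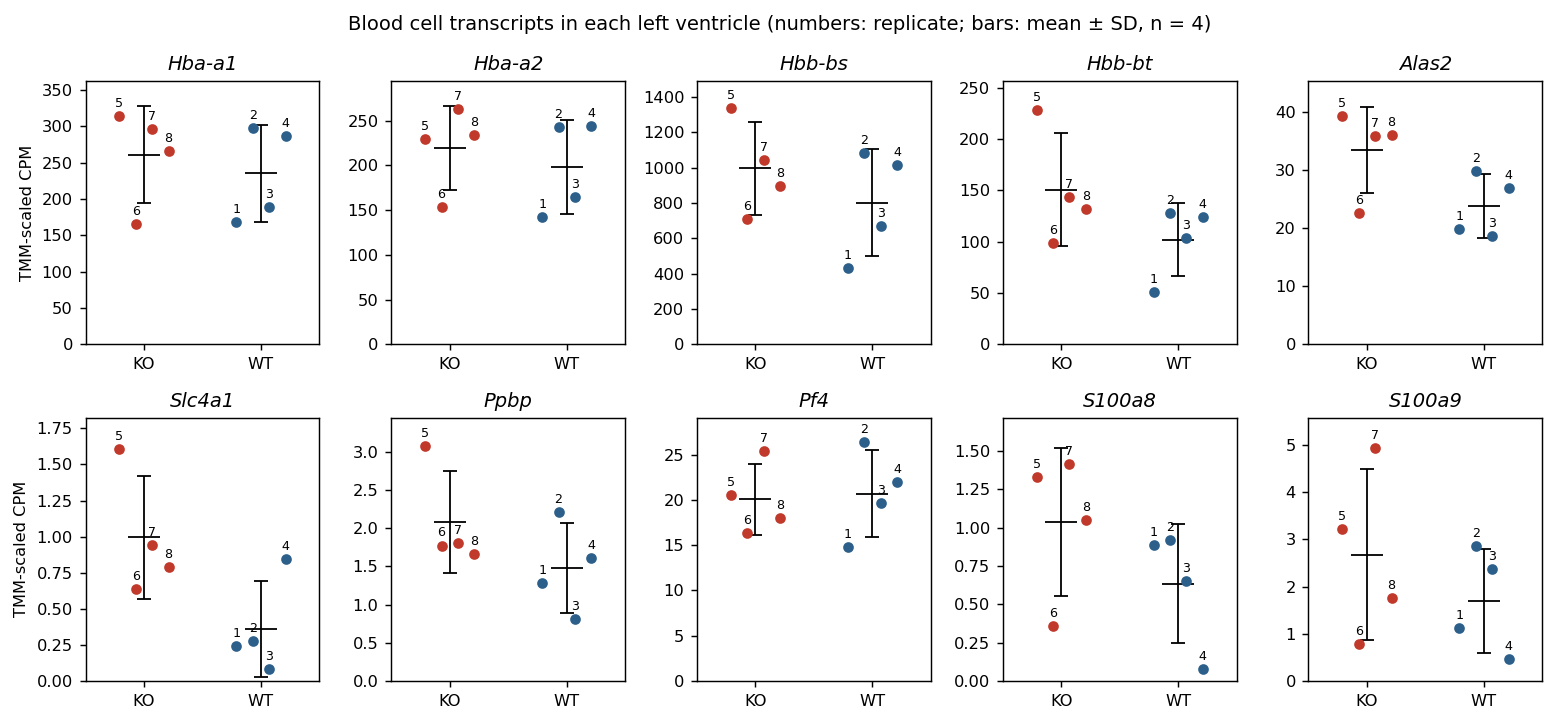
TMM-scaled CPM (y axis, from 0) of each of the 10 blood cell transcripts in the 4 KO and 4 WT libraries (points, numbered by replicate), with the mean ± SD as a bar. KO replicate 5 is the highest point in 6 of 10 panels and WT replicate 1 the lowest in 4, and KO and WT points overlap in every panel.

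Haemoglobin transcripts held most of the counts of the 10 genes. The 4 globin genes together held 2108, 1124, 1748 and 1529 CPM in KO replicates 5 to 8, against 795.1, 1752, 1130 and 1669 CPM in WT replicates 1 to 4. KO replicate 5 was highest and WT replicate 1 lowest, and the other 6 hearts of both genotypes lay among each other. This was 0.114 to 0.205% of all counts in KO libraries and 0.0775 to 0.171% in WT libraries. The means were 1627 ± 412 CPM in KO and 1336 ± 454 CPM in WT (SD, n = 4 each), a difference smaller than either SD.

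Hba-a1 (ENSMUSG00000069919, chromosome 11, 32283511 to 32284465 on the plus strand) encodes the alpha chain. It had 314.3, 165.0, 296.9 and 266.3 CPM in KO replicates 5 to 8, against 167.7, 297.0, 189.2 and 286.4 CPM in WT replicates 1 to 4. KO replicate 6 lay below every WT library and KO replicate 5 above them all. The log2 fold change stood at 0.15 ± 0.22 (SE; edgeR adjusted p = 0.923). Hba-a2 (ENSMUSG00000069917, 32296489 to 32297298 on the same strand) encodes the same chain from the neighbouring copy. Its level was 229.1, 153.3, 262.5 and 233.8 CPM in KO replicates 5 to 8, against 142.3, 242.8, 164.7 and 244.0 CPM in WT replicates 1 to 4. The groups overlapped almost fully, with a log2 fold change of 0.15 ± 0.20 (SE; edgeR adjusted p = 0.914). With the counts of both copies summed before the fit, the value was also 0.15. Without WT replicate 1 the log2 fold changes of both alpha genes were 0.02.

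Hbb-bs (ENSMUSG00000052305, chromosome 7, 103826534 to 103828096 on the minus strand) encodes the adult beta chain. It was the most abundant of the 10 genes, with 1336, 706.8, 1045 and 897.5 CPM in KO replicates 5 to 8, against 434.5, 1084, 672.0 and 1014 CPM in WT replicates 1 to 4. WT replicate 1 held the least and KO replicate 5 the most, 3.07 times as much. The log2 fold change stood at 0.31 ± 0.26 (SE; edgeR adjusted p = 0.837), and 0.11 without WT replicate 1. Hbb-bt (ENSMUSG00000073940, 103812524 to 103813996) is its partner copy. Hbb-bt had 228.9, 98.9, 143.9 and 131.5 CPM in KO replicates 5 to 8, against 50.7, 128.5, 103.8 and 124.5 CPM in WT replicates 1 to 4. All KO libraries but replicate 6 lay above every WT library. Hbb-bt had a log2 fold change of 0.57 ± 0.28 (SE; edgeR adjusted p = 0.777), and 0.29 without KO replicate 5. The beta pair summed before the fit had a value of 0.35.

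**Figure D2:**
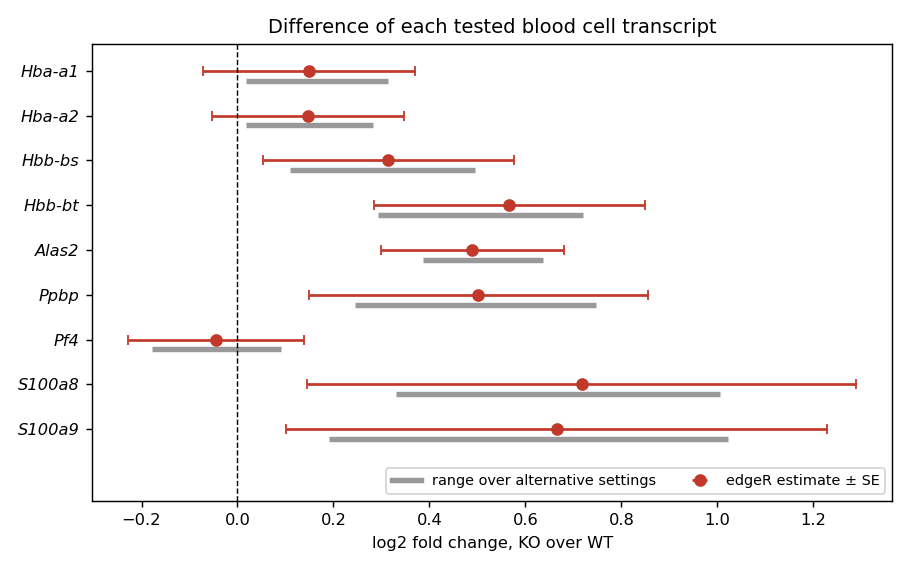
Log2 fold change, KO over WT (x axis), of the 9 tested blood cell transcripts, as the edgeR estimate ± SE (red) and the range over all alternative settings (grey). Apart from Pf4 at -0.04, the estimates run from 0.15 for the alpha globin genes to 0.72 for S100a8, and none passed the threshold.

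Compared per kilobase of exon, the counted levels of the alpha pair and Hbb-bt stood well below that of Hbb-bs. Whether reads that fit both copies would change this gap is not known here. Hbb-bs averaged 1297 CPM per kilobase in KO and 1043 in WT, Hba-a1 321.0 in KO and 289.5 in WT, Hba-a2 329.4 in KO and 297.5 in WT, and Hbb-bt 214.5 in KO and 144.9 in WT. Myoglobin was far more abundant than any of them, at 15891 ± 1850 CPM in KO and 16019 ± 2708 CPM in WT (SD, n = 4 each), or 10694 CPM per kilobase over all hearts. Mb had a log2 fold change of -0.01 ± 0.15 (SE; edgeR adjusted p = 0.990). Cytoglobin (Cygb), a globin of fibroblast-like cells, had 92.4 ± 10.9 CPM in KO and 84.8 ± 10.97 CPM in WT (SD, n = 4 each). The embryonic genes Hbb-y and Hbb-bh1 held 0 counts in all 8 libraries. This allows at most 0.204 to 0.270 CPM per library (3 counts over total counts, without TMM scaling; counting error only). The embryonic alpha-type gene Hba-x held 1 count in 1 library.

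Ratios between members, which do not depend on library scaling, were described after the values were seen and were not tested. Those with globin counts depend on how reads that fit both copies were counted. Beta globin counts per 100 alpha globin counts were 287.9, 253.2, 212.5 and 205.8 in KO replicates 5 to 8, against 156.6, 224.6, 219.3 and 214.6 in WT replicates 1 to 4. WT replicate 1 lay far below the rest, and KO replicate 5 highest. Hbb-bt counts per 100 Hbb-bs counts were 17.14, 13.996, 13.8 and 14.7 in KO replicates 5 to 8, against 11.7, 11.9, 15.4 and 12.3 in WT replicates 1 to 4. All WT libraries but replicate 3 lay below every KO library. Hba-a1 counts per 100 Hba-a2 counts were 137.2 in KO replicate 5, 107.6 to 113.9 in the other KO libraries and 114.9 to 122.4 in WT libraries. The mitochondrial share of counts was highest in WT replicate 1, where the beta to alpha ratio was lowest, and its part in these ratios was not tested.

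**Figure D3:**
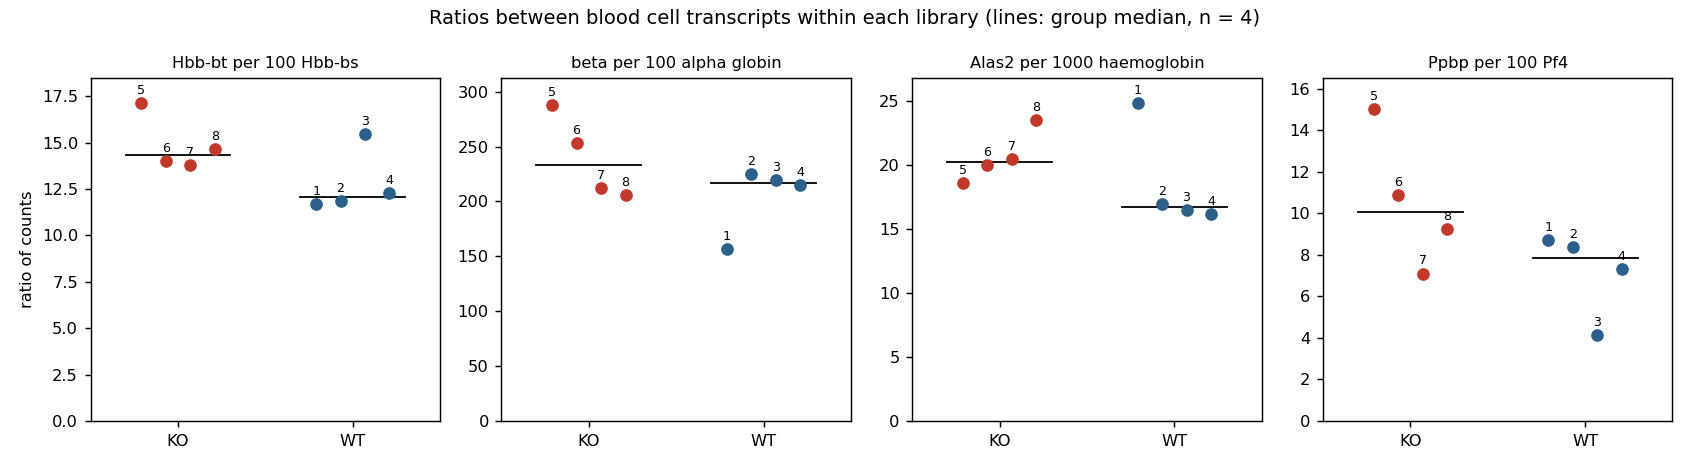
Ratios of raw counts between blood cell transcripts in each library (y axes, from 0), with KO and WT points numbered by replicate and lines at the group medians (n = 4). WT replicate 1 is apart in beta per 100 alpha globin (156.6) and in Alas2 per 1000 haemoglobin (24.8), and KO replicate 5 is highest in 3 of 4 panels.

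Alas2 (ENSMUSG00000025270, chromosome X, 150547375 to 150570638 on the plus strand) had the smallest p-value of the 9 genes tested. It had 39.3, 22.5, 35.8 and 36.0 CPM in KO replicates 5 to 8, against 19.8, 29.8, 18.6 and 27.0 CPM in WT replicates 1 to 4. All KO libraries but replicate 6 lay above every WT library. The log2 fold change stood at 0.49 ± 0.19 (SE; edgeR unadjusted p = 0.0243, adjusted p = 0.734). It ran from 0.39 to 0.64 over the alternative settings. Per 1000 haemoglobin counts, Alas2 had 18.6, 20.01, 20.5 and 23.5 counts in KO replicates 5 to 8, against 24.8, 17.0, 16.5 and 16.2 in WT replicates 1 to 4. WT replicate 1, the library with the least haemoglobin, was the highest of the 8 in this ratio, and the other WT libraries lay below every KO library.

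Slc4a1 (ENSMUSG00000006574, chromosome 11, 102348824 to 102366203 on the minus strand) was the 1 member with too few counts to be tested. It held 23, 9, 12 and 9 counts in KO replicates 5 to 8, against 3, 3, 1 and 11 counts in WT replicates 1 to 4. KO replicates 5 and 7 lay above every WT library in CPM, and WT replicate 4 lay within the KO range. The sums were 53 counts in KO (95% exact Poisson interval 39.7 to 69.3) and 18 in WT (10.7 to 28.4), intervals that cover counting error only and not the spread between hearts. In the fit without a filter on low counts, its value was 1.42 ± 0.59 (log2 scale, SE; edgeR unadjusted p = 0.0241, adjusted p = 0.783 over 21572 genes).

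Other genes of the red cell did not pass either. Of 32 listed genes of the red cell membrane and of reticulocytes, 31 were in the table, 18 were tested and 0 passed, with 10 values above and 8 below 0 and a median log2 fold change of 0.07. Several of the most abundant ones are not specific to blood: the water channel gene Aqp1 had 594.2 ± 127.0 CPM in KO and 504.6 ± 84.0 CPM in WT (SD, n = 4 each), and the spectrin anchor gene Ank1 273.7 ± 5.12 CPM in KO and 304.3 ± 44.7 CPM in WT. The membrane skeleton gene Epb41 had a log2 fold change of 0.29 ± 0.11, the beta spectrin gene Sptb 0.17 ± 0.16, the mitophagy receptor gene Bnip3l 0.03 ± 0.11 and Mkrn1 -0.02 ± 0.11 (SE), none of which passed. The regulators of red cell precursors Gata1 and Klf1 held at most 1 count in any library. Of the 12 genes of heme synthesis and its mitochondrial transport, all were tested and 0 passed, with 6 values above and 6 below 0 and a median of -0.0019. Alas1, the form of the first enzyme used in most tissues, had 146.9 ± 19.0 CPM in KO and 154.4 ± 27.8 CPM in WT (SD, n = 4 each). Per kilobase of exon, Alas1 averaged 24.4 CPM over all hearts, while Alas2 averaged 13.9 in KO and 9.89 in WT. The last enzyme gene Fech had a log2 fold change of 0.02 ± 0.10, Urod -0.04 ± 0.10, Alad -0.0042 ± 0.13, Tmem14c 0.04 ± 0.16 and the mitochondrial iron importer gene Slc25a37 0.20 ± 0.14 (SE).

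Of the platelet genes, Pf4 was the more abundant. Pf4 (ENSMUSG00000029373, chromosome 5, 90772435 to 90773383 on the plus strand) had 20.5, 16.3, 25.4 and 18.03 CPM in KO replicates 5 to 8, against 14.8, 26.4, 19.7 and 22.04 CPM in WT replicates 1 to 4. Ppbp and Pf4 together held 22.1 ± 4.09 CPM in KO and 22.2 ± 5.27 CPM in WT (SD, n = 4 each). For Pf4 the KO range lay inside the WT range, and the log2 value was -0.04 ± 0.18 (SE; edgeR adjusted p = 0.974), with a sign that turned in 3 of 16 alternative settings. Ppbp (ENSMUSG00000029372, 90768518 to 90770063) lies beside it. Its level was 3.08, 1.77, 1.80 and 1.66 CPM in KO replicates 5 to 8, against 1.28, 2.21, 0.817 and 1.61 CPM in WT replicates 1 to 4. KO replicate 5 stood apart, and without it the log2 fold change of 0.50 ± 0.35 (SE; edgeR adjusted p = 0.814) was 0.24. Ppbp counts per 100 Pf4 counts were 15.0, 10.9, 7.10 and 9.22 in KO replicates 5 to 8, against 8.70, 8.39, 4.15 and 7.32 in WT replicates 1 to 4.

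Of 22 other platelet and megakaryocyte genes, 9 were tested and 0 passed, with 2 values above and 7 below 0 and a median log2 fold change of -0.03. The platelet integrin gene Itga2b had 3.98 ± 0.712 CPM in KO and 2.92 ± 0.222 CPM in WT (SD, n = 4 each), a log2 fold change of 0.45 ± 0.22 (SE). Nrgn, abundant in platelets, stood at 0.27 ± 0.29 and the integrin activator gene Fermt3 at -0.03 ± 0.18. Endothelium also expresses several genes of this list. Of these, Gng11 had 44.9 ± 3.22 CPM in KO and 61.6 ± 10.2 CPM in WT (log2 fold change -0.45 ± 0.13 SE; edgeR adjusted p = 0.711), and Vwf stood at -0.03 ± 0.15. Thbs1 had 124 to 654 counts in KO libraries, against 220 to 357 in WT replicates 1, 3 and 4 and 1053 in WT replicate 2, which also stood apart in Atf3. It had a log2 fold change of -0.83 ± 0.57 (SE).

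The neutrophil genes were scarce. S100a8 (ENSMUSG00000056054, chromosome 3, 90668978 to 90670035 on the plus strand) held 19, 5, 18 and 12 counts in KO replicates 5 to 8, against 11, 10, 8 and 1 counts in WT replicates 1 to 4. KO replicates 5, 7 and 8 lay above every WT library in CPM and KO replicate 6 below all WT libraries but replicate 4. The log2 fold change stood at 0.72 ± 0.57 (SE; edgeR adjusted p = 0.8288), and 0.33 without WT replicate 4. S100a9 (ENSMUSG00000056071, 90692632 to 90695721 on the minus strand) held 46, 11, 63 and 20 counts in KO replicates 5 to 8, against 14, 31, 29 and 6 counts in WT replicates 1 to 4. KO replicate 7 held the most and WT replicate 4 the least. S100a9 had a log2 fold change of 0.66 ± 0.56 (SE; edgeR adjusted p = 0.839), and 0.19 without KO replicate 7. The coefficient of variation of S100a9 CPM was 67.9% in KO and 64.8% in WT, the highest of the 10 genes in KO. S100a9 counts per 100 S100a8 counts ranged from 166.7 to 350.0 in KO libraries and from 127.3 to 600.0 in WT libraries. Both genes together held 3.71 ± 2.25 CPM in KO and 2.34 ± 1.40 CPM in WT (SD, n = 4 each).

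Among 22 other genes of mature neutrophils, 9 were tested and 0 passed, with 4 values above and 5 below 0 and a median of -0.12, which was 0.22 over the 20 genes with any count in the fit without a filter. Csf3r, the receptor for the neutrophil growth factor, had 4.395 ± 1.87 CPM in KO and 2.95 ± 1.076 CPM in WT (SD, n = 4 each; log2 fold change 0.57 ± 0.35 SE). The more widely expressed members G0s2 (-0.48 ± 0.29), S100a6 (-0.19 ± 0.13), S100a11 (-0.13 ± 0.10), Hdc (0.02 ± 0.27) and Msrb1 (0.07 ± 0.14) lay on both sides of 0. Ly6g and Cxcr1 held 0 counts in every library. The summed level of the list was 220.3 to 269.5 CPM in KO libraries and 216.0 to 308.2 CPM in WT libraries.

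Markers of other blood cells and of the tissue were set beside these values. Of 10 B cell genes, 6 were tested and 0 passed, 1 value lay above and 5 below 0, and the median was -0.21. Their sum was 17.5 to 24.99 CPM in KO libraries and 23.6 to 27.5 CPM in WT libraries, with Igkc at -0.63 ± 0.28, Ighm at -0.23 ± 0.20, Cd79b at -0.19 ± 0.34, Cd79a at -0.15 ± 0.46 and Cd22 at 0.43 ± 0.36 (log2 fold change ± SE). Of 15 T and NK cell genes only Gzma was tested (-0.28 ± 0.75 in edgeR, 0.47 in limma-voom), and the list summed to 4.38 to 5.49 CPM in KO libraries and 4.91 to 7.93 CPM in WT libraries. Of 8 monocyte genes 3 were tested and 0 passed, with F13a1 at 0.02 ± 0.18 and Ccr2 at -0.04 ± 0.32. The median was -0.03 over 10 macrophage genes, -0.10 over 8 endothelial genes and -0.14 over 8 fibroblast genes, all 8 of which lay below 0, and 0 of these genes passed. In the atrial list 3 genes were tested and 0 passed, with Nppa at 0.59 ± 0.19 (SE; edgeR adjusted p = 0.711). The parts of these cell types in the values of the 10 genes were not tested.

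**Figure D4:**
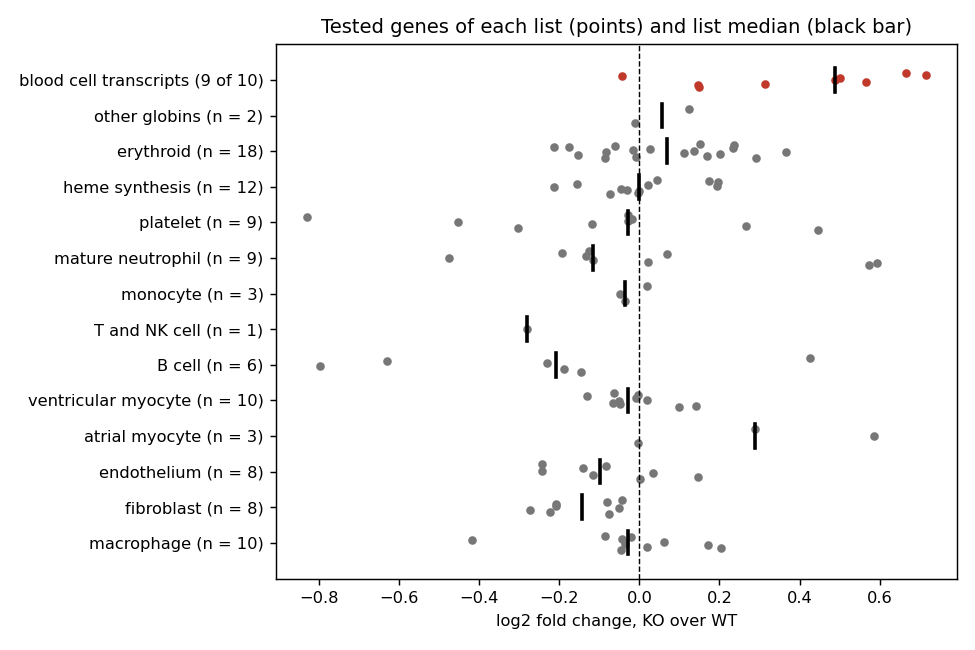
Log2 fold change, KO over WT (x axis), of each tested gene (points) in the lists of blood and tissue cell markers, with the list median as a black bar. The 9 blood cell transcripts have a median of 0.49, and no gene in the plot passed the threshold. The longer erythroid, platelet and mature neutrophil lists have medians of 0.07, -0.03 and -0.12, but hold tested genes that are not specific to blood.

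Spread between hearts was compared with that of genes of like level. Within KO and within WT, the coefficient of variation of all 10 members was above the median of the tested genes whose mean CPM lay within 2-fold of theirs. The 10 genes are not independent, since copies can share reads and genes of a cell type vary together. Hbb-bs varied by 26.6% in KO and 37.9% in WT, against medians of 9.15% in KO and 15.0% in WT over 163 genes of like level. Alas2 varied by 22.3% in KO and 22.9% in WT, against 10.3% in KO and 13.7% in WT over 5030 genes. Pf4 varied by 19.7% in KO and 23.3% in WT, against 11.1% in KO and 14.4% in WT over 5073 genes. For the low-count gene Ppbp the gap was narrow, with 32.2% in KO and 39.6% in WT, against 29.2% in KO and 33.2% in WT over 2167 genes. Slc4a1, itself not tested, varied by 43.1% in KO and 92.4% in WT. The tested genes of like level had medians of 37.0% in KO and 41.7% in WT (837 genes).

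The globin genes and Alas2 had high correlations with each other across hearts, in both genotypes together. Over the 8 libraries, log2(CPM + 1) of Hba-a1 and Hbb-bs had a Pearson r of 0.91 (exact permutation p = 0.000670, adjusted p = 0.00298 over 8 relations, two-sided) and a Spearman rho of 0.93 (exact permutation p = 0.00223, adjusted p = 0.0179). Without the 2 libraries farthest from the median of Hba-a1, r was 0.95. Hbb-bs and Hbb-bt had r of 0.96 (exact permutation p = 0.000744, adjusted p = 0.00298) and rho of 0.86 (exact permutation p = 0.0107, adjusted p = 0.0286), and r of 0.89 without the 2 libraries farthest from the median. These copies share sequence, and the part of shared reads in this relation was not tested. Hbb-bs and Alas2 had r of 0.84 (exact permutation p = 0.00677, adjusted p = 0.0135) and rho of 0.81 (exact permutation p = 0.0218, adjusted p = 0.0436). Without WT replicates 1 and 3, the libraries farthest from the median of Hbb-bs, their r was 0.74 (exact permutation p = 0.0917). Leaving them out narrows the range and leaves fewer libraries. The lower r therefore does not show how far the relation rests on those libraries.

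S100a8 and S100a9 had r of 0.86 (exact permutation p = 0.00501, adjusted p = 0.0134) and rho of 0.88 (exact permutation p = 0.00724, adjusted p = 0.0286), but r of 0.62 without WT replicate 4 and KO replicate 6 (exact permutation p = 0.183). Hbb-bs and S100a8 had r of 0.22 (exact permutation p = 0.592, adjusted p = 0.641) and rho of 0.52 (exact permutation p = 0.197, adjusted p = 0.225), and r of 0.50 without the 2 libraries farthest from the median. WT replicate 4 had the second-highest haemoglobin sum of the WT libraries and the lowest S100a8 and S100a9 of all 8, at 1 and 6 counts. The libraries left out were WT replicates 1 and 3, so the part of WT replicate 4 in the r of 0.22 was not tested. Pf4 and S100a8 had r of 0.20 (exact permutation p = 0.641, adjusted p = 0.641) and rho of 0.31 (exact permutation p = 0.462, adjusted p = 0.462), and r of 0.30 without the 2 libraries.

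Pf4 was set beside a globin and beside Ppbp. Hbb-bs and Pf4 had r of 0.76 (exact permutation p = 0.0265, adjusted p = 0.0425) and rho of 0.79 (exact permutation p = 0.0279, adjusted p = 0.0447), and r of 0.62 without WT replicates 1 and 3 (exact permutation p = 0.179). Ppbp and Pf4 had r of 0.35 (exact permutation p = 0.407, adjusted p = 0.543) and rho of 0.52 (exact permutation p = 0.197, adjusted p = 0.225), and r of 0.76 without KO replicate 5 and WT replicate 3 (exact permutation p = 0.0569). The difference between these 2 relations was not tested. With the genotype means subtracted, r was 0.92 for Hba-a1 with Hbb-bs, 0.96 for Hbb-bs with Hbb-bt, 0.83 for Hbb-bs with Alas2, 0.85 for S100a8 with S100a9 and 0.85 for Hbb-bs with Pf4.

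**Figure D5:**
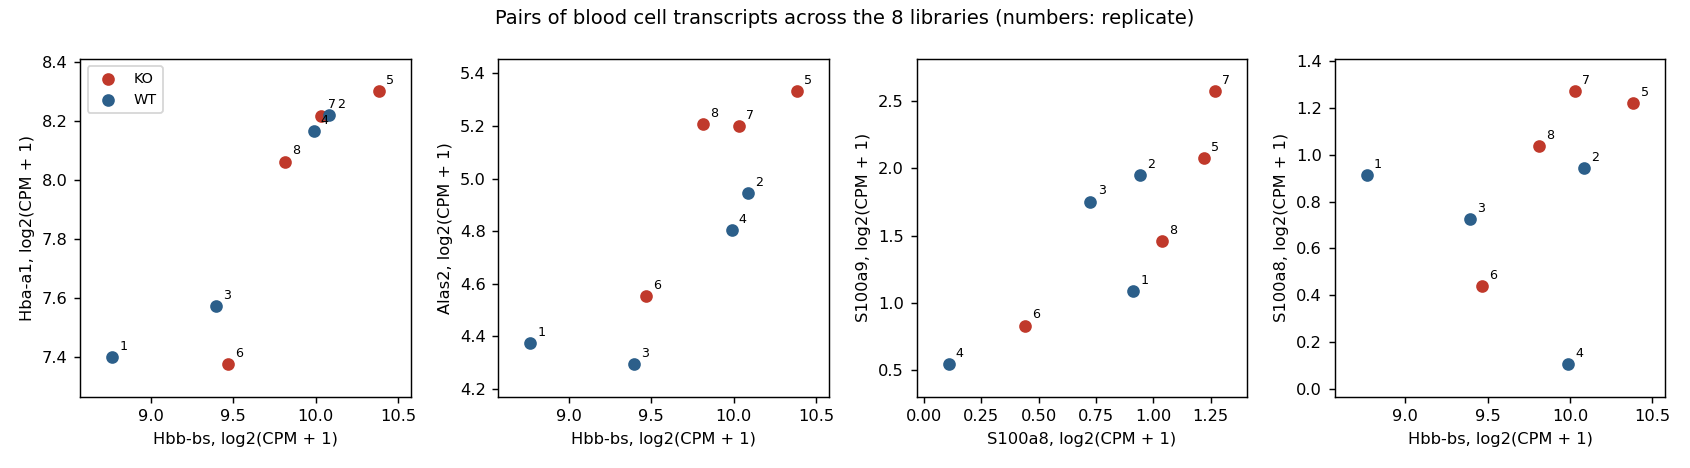
Log2(CPM + 1) of 4 pairs of blood cell transcripts (both axes) in the 8 libraries, coloured by genotype and numbered by replicate. Points of both genotypes lie along 1 line for Hbb-bs with Hba-a1 (r = 0.91). In the last panel (r = 0.22), WT replicate 4 has much Hbb-bs and the least S100a8, at 1 count.

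The genes outside the 10 whose levels followed Hbb-bs most closely included none of the listed blood genes. Among 12089 tested genes averaging at least 1 CPM, the highest r over the 8 libraries belonged to the ATP synthase gene Atp5d (0.96), the lactate transporter gene Slc16a3 (0.96), the complex I gene Ndufb8 (0.95), the complex II gene Sdhb (0.95) and the splicing factor gene Sf3b5 (0.95). Of all 13335 other genes tested, Hbb-bt ranked 3 in likeness to Hbb-bs, Hba-a1 28, Hba-a2 53 and Alas2 115, while Pf4 ranked 296 and S100a8 4087. For Pf4 the closest genes included Arpc1b (r = 0.95), Eif6 (0.94), Camk2n2 (0.94) and D17Wsu92e (0.94), and Ppbp ranked 3044. For S100a8 they were Srrd (0.93), Nprl2 (0.92), Tmco4 (0.92), Myadml2os (0.90) and Eogt (0.90), and S100a9 ranked 11. With 8 libraries and so many genes, such values describe likeness across these hearts and nothing more. The 5 closest genes had a median exon length of 3146 bases for Hbb-bs, 2958 for Pf4 and 2013 for S100a8. Over all genes searched it was 4599 bases. The part of exon length in these relations was not tested.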

How the data were processed

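Left ventricle samples, 4 of Nbdy KO and 4 of WT mice, were sequenced as stranded poly(A) libraries, per the labels' protocols. The authors deposited raw, whole-number counts per Ensembl gene, 1 column per heart, not normalized. The submitters' processing notes name STAR 2.7.1a and the builds GRCm38 and mm10. Which tool counted the reads, with which strand setting and which treatment of reads that fit several places, is not given in the sources used here. Of 38293 identifiers, 36429 matched GENCODE M21 on GRCm38. The rest took up to 0.187% of a library's counts.

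The test was the two-sided quasi-likelihood test of edgeR 4.0.16 in R 4.3.3 on genes kept by filterByExpr (minimum count 10), with TMM scaling and a model of genotype alone. P-values were adjusted by Benjamini-Hochberg across all 13336 of these genes and read at 0.05. SE comes from the fold change and its F statistic. CPM uses TMM-scaled library sizes, also for genes not tested, and correlations use log2(CPM + 1). Only the limit given for genes at 0 counts uses total counts. Levels per kilobase use merged GENCODE exon lengths. The fit was tested on simulated counts, with genes drawn independently and some changed by known folds. The outcome is not given here, so it does not tell which differences in the 10 genes could have been detected. Chi-square values between libraries, over their degrees of freedom, were 11.5 to 60.0, above sampling noise, so each was treated as 1 sample. The p-values measure the spread between these samples, which may be technical, as separate animals are not stated.

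The 10 genes, the lists and the tests were chosen with earlier results of these data known. The text names the 10 genes, up to 6 tested genes of each list with the highest mean CPM, and the 5 genes most like Hbb-bs, Pf4 and S100a8; a few genes that meet this rule are not reported here. Genes named at 0 or a few counts, Thbs1 in single libraries and the ratios between genes were picked after their values were seen. Alternatives were DESeq2 size factors, library totals, removal of mitochondrially encoded genes, DESeq2 1.42.0, limma-voom (limma 3.58.1), tests on unfiltered genes or on genes with 1 CPM in at least 4 libraries, summed globin copies, an adjusted p of 0.10 and each library left out.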

Additional observations from a re-analysis of the deposited data

Results flagged for a closer look

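Of 38 groups of 4 values examined (the 10 genes, 3 sums and 6 ratios, in KO and in WT), 4 held a sample far from the other 3. The rule was the gap from that sample to the nearest value, over the range of the group. Its cut-off is set so that chance flags about 1 group in 20. This rate does not apply here, so no chance expectation is drawn from it. The sums and ratios reuse the counts of the 10 genes, and the ratios were picked after their values were seen. Ppbp in KO replicate 5 was 3.08 CPM, against 1.66 to 1.80 CPM in the other KO libraries. Hbb-bt counts per 100 Hbb-bs counts were 15.4 in WT replicate 3, against 11.7 to 12.3 in the other WT libraries. Beta globin counts per 100 alpha globin counts were 156.6 in WT replicate 1, against 214.6 to 224.6 in the other WT libraries. Alas2 counts per 1000 haemoglobin counts were 24.8 in WT replicate 1, against 16.2 to 17.0 in the other WT libraries. The last 2 share the haemoglobin counts of the same library and are not independent.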

How the results depend on the processing

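Under 16 alternative settings, 140 of 143 values of the tested blood cell transcripts kept their direction and stayed short of the threshold, with a smallest adjusted p of 0.488. The 3 exceptions were Pf4, which ran from -0.18 (without KO replicate 7) to 0.091 with 1 library left out: 0.091 without WT replicate 2, 0.040 without KO replicate 6 and 0.0024 without KO replicate 8. Over all genes, 3 passed in edgeR, 11 in DESeq2 and 10 without a filter, and 2 to 6 with 1 library left out (5 without WT replicate 1, 6 without WT replicate 4); 0 of the 10 genes and 0 listed genes passed in any of these fits. The KO minus WT difference in summed haemoglobin ran from 110.4 CPM (without WT replicate 1) to 458.6 CPM (without KO replicate 6), in platelet genes from -2.09 CPM (without WT replicate 1) to 2.08 CPM (without WT replicate 2) and in neutrophil genes from 0.492 CPM (without KO replicate 7) to 2.23 CPM (without KO replicate 6). Without the 2 libraries farthest from the median, 4 relations no longer passed: Hbb-bs with Hbb-bt (r = 0.89), Hbb-bs with Alas2 (0.74), S100a8 with S100a9 (0.62) and Hbb-bs with Pf4 (0.62), each with fewer libraries. List medians near 0 turned sign in some settings, the mature neutrophil list to 0.22 without a filter. S100a8 was not tested under the filter of 1 CPM, and Slc4a1 only in some fits. No paired analysis was possible because WT libraries are numbered 1 to 4 and KO libraries 5 to 8. Counts of 1 to 63 limit what can be seen for Slc4a1, S100a8, S100a9 and Ppbp.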

Other observations

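Many genes of the platelet and neutrophil lists had too few counts to be tested, and they are given here by list, with no test. The 13 untested platelet genes together held 93, 42, 69 and 51 counts in KO replicates 5 to 8, against 46, 59, 42 and 60 counts in WT replicates 1 to 4. The mean CPM was higher in KO for 8 of them and lower in KO for 5. Among receptor genes, chosen after their values were seen to show both directions, Gp5 held 10, 3, 5 and 3 counts in KO libraries, against 2, 1, 2 and 2 in WT libraries, while Gp1bb held 9, 11, 6 and 3 counts in KO libraries, against 7, 8, 12 and 15 in WT libraries.

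The 13 untested genes of mature neutrophils held 36, 17, 37 and 22 counts in KO replicates 5 to 8, against 6, 23, 19 and 12 counts in WT replicates 1 to 4. The mean CPM was higher in KO for 8, lower in KO for 3 and at 0 in all libraries for 2. Also chosen after their values were seen, Slpi held 5, 2, 9 and 3 counts in KO libraries, against 0, 2, 0 and 0 in WT libraries, while the chemoattractant receptor gene Fpr1 held 0 counts in every KO library, against 1, 3, 3 and 0 in WT libraries. The 10 granule genes of immature neutrophils held 22, 4, 3 and 2 counts in KO replicates 5 to 8, against 8, 10, 2 and 2 counts in WT replicates 1 to 4, with 3 genes higher in KO, 3 lower in KO and 4 at 0 throughout.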
